A study of Mus musculus with 14 samples.

Results

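The constitutive proteasome genes were followed in CD4+ T cells before and after culture under conditions that favour the Th1 fate, through the 47 genes of the count table whose name starts with Psm, a letter from a to g and a digit. The interferon-induced subunits Psmb8, Psmb9 and Psmb10 were left out by the same rule. The table held 22048 genes, of which 12343 passed a filter on low counts and were tested, and 45 of the 47 were among them. The rule reads names alone, so it also takes in Psmc3ip, which encodes a recombination protein that binds a proteasome ATPase and is not a proteasome part, and Psma8 and Psmb11, subunits known from testis and thymus epithelium.

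The proteasome is the protease that degrades proteins marked with ubiquitin. Its 20S core is a barrel of alpha and beta rings, and the beta subunits Psmb5, Psmb6 and Psmb7 carry the catalytic sites. The 19S regulator unfolds the substrate with a ring of ATPases (Psmc genes) and recognises and removes ubiquitin with its lid and other base subunits (Psmd genes). Chaperones assemble both, and other caps can open the core, among them PA28 alpha and beta (Psme1 and Psme2), PA28 gamma (Psme3) and PA200 (Psme4). In T cells exposed to interferon-gamma, Psmb8, Psmb9 and Psmb10 can replace Psmb5, Psmb6 and Psmb7 to form the immunoproteasome, and the PA28 alpha and beta genes are known interferon-gamma targets.

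All mice were C57BL/6 animals carrying a reporter that marks interferon-gamma producing cells with YFP, and the cells were taken from peripheral lymph nodes and spleen. The uncultured naive group (n = 3) held CD4+ CD44- CD62L+ cells sorted directly. The other libraries came from enriched CD4+ T cells, not from sorted naive cells, held for 4 days with plate-bound anti-CD3 and anti-CD28, IL-2, IL-12 and anti-IL4. They received 1 µM of SGC0946, which blocks DOT1L, a histone methyltransferase, or 1 µM of SGC0649, its inactive control compound, and were then sorted by the reporter. This gave YFPneg SGC0649 (n = 2), YFPneg SGC0946 (n = 3), YFPpos SGC0649 (n = 3) and YFPpos SGC0946 (n = 3) cells. A cultured group therefore differs from naive cells in its starting population as well as in culture. The design text calls the replicates biological, and nothing else says that they came from separate animals, so the p-values measure the spread between these libraries.

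The libraries held 14.5 M to 31.6 M counts (M, 1000000), and 57.2% to 65.2% of reads were assigned to genes. YFPpos SGC0946 replicate 2 stood apart with 3.61% unmapped reads, against 6.44% to 8.35% in the other YFPpos, 3.14% to 4.62% in the YFPneg and 7.40% to 8.66% in the naive libraries. Levels are given as CPM, counts per 1000000 counts of a library after TMM scaling, which equalises libraries by their composition. The 6 CD4 T cell markers in the table summed to 2490 to 4175 CPM over all libraries. The highest sums in any library were 2.61 CPM for 5 B cell, 9.13 for 6 myeloid, 1.59 for 6 erythroid and 19.7 for 2 CD8 T cell markers. The 3 NK cell markers reached 165 CPM in YFPpos SGC0649 cells, and Klrb1c and Ncr1 were at 0 in YFPneg SGC0649 cells, where the sum of 128 to 159 CPM was Eomes alone. The 5 markers of dead or stressed cells summed to 28.9 to 33.3 CPM in naive and 58.4 to 78.9 CPM in cultured libraries. The summed level of 9 markers of dividing cells was 229 to 248 CPM in naive cells, 3466 to 3687 in YFPneg SGC0649, 3026 to 3098 in YFPneg SGC0946, 4813 to 4865 in YFPpos SGC0649 and 4530 to 4598 in YFPpos SGC0946 cells. None of the 9 was at 0 in any group. This order, naive below YFPneg below YFPpos, is also the order of most proteasome genes below, and the part of dividing, NK or stressed cells in those results was not tested.

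RefSeq promoters were found for 39 of the 47 genes, as windows from 250 bases before to 50 bases after the start. The promoters of Psmb5, Psmd2 and Psme1 are shown up to base 30 because these genes stand for the patterns described below. The catalytic subunit Psmb5 and the 19S subunit Psmd2 were higher in YFPpos than in YFPneg cells, and the cap subunit Psme1 was lower. Sequences run 5′ to 3′ on the gene's strand (GRCm38.p6). Capitals mark the letters TGACNNNGC, the core of an antioxidant response element, at -47 in Psmb5 (chr14:54617966-54618245, minus strand). They mark CCGGAAG, an ETS factor motif, at -26 on the opposite strand in Psmd2 (chr16:20651402-20651681, plus strand), and the core of an interferon-stimulated response element on the opposite strand at base 10 after the start in Psme1 (chr14:55578244-55578523, plus strand).
Psmb5: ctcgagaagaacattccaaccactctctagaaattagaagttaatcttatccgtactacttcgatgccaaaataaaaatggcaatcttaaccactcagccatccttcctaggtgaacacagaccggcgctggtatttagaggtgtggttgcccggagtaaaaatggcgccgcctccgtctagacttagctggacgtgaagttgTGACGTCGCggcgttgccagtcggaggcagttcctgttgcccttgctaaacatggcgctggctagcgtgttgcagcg
Psmd2: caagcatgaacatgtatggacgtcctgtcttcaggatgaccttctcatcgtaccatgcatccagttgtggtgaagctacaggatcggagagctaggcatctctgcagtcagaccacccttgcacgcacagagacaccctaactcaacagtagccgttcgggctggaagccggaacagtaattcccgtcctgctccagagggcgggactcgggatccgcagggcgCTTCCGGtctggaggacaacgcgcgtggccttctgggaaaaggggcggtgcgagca
Psme1: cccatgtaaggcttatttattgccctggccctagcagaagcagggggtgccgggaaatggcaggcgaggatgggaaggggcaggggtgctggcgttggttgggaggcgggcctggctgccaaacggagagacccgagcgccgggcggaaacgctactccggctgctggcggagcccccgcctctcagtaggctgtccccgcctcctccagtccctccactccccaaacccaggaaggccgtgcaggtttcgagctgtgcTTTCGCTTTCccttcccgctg

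Motifs were counted on both strands in the 300-base windows of the 39 genes and of 9413 tested genes with a promoter. TGACNNNGC, the site read by the NRF factors, was in 6 of the 39 genes (15.4%, against 17.1% of tested genes), among them Psmb5, Psmb6 and Psme4. CCGGAAG was in 15 (38.5%, against 20.4%), among them the 19S genes Psmc1, Psmc2, Psmc6, Psmd2, Psmd4, Psmd6, Psmd11, Psmd12 and Psmd13. CCAAT was in 14 genes (35.9%, against 43% of tested genes) and TATAAA in 3 (7.69%, against 8.17%). The interferon-stimulated response element core, counted after the values of Psme1 had been seen, was in Psmb3, Psmd4, Psmd9, Psme1 and Psmg4 (5 genes, 12.8%, against 3.85%). No match of one motif overlapped a match of another in the windows of the 39 genes, and a match is a match of letters and not a bound site. Some genes have several annotated starts, and a gene was counted if any of its windows held the motif.

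Almost all proteasome genes were higher in cultured cells than in naive cells, and most of them stood higher again in the cells that made interferon-gamma. The 47 genes together took 0.369% to 0.381% of all counts in naive libraries, 0.629% to 0.694% in YFPneg, 0.784% to 0.833% in YFPpos SGC0649 and 0.710% to 0.762% in YFPpos SGC0946 libraries. In libraries of many cells, fewer cells of a type and less RNA per cell cannot be told apart. The 4 comparisons with naive cells share the same 3 naive libraries, so their values are given side by side and not counted as separate evidence.

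In YFPpos SGC0649 against naive cells, 43 of 45 tested genes were higher and none was lower, where 42.6% of all tested genes were higher and 37.3% lower. Calls are those of edgeR's quasi-likelihood test at an adjusted p (Benjamini-Hochberg over all tested genes) under 0.05. The median log2 fold change was 1.17 for the proteasome genes and 0.09 for all tested genes. In YFPneg SGC0649 cells 42 genes were higher and none lower (36.4% and 32.6% of all tested genes), with a median of 0.83 against 0.03. With SGC0946, YFPpos cells had 41 genes higher and 1 lower (42.2% and 38.5%), with a median of 1.03 against 0.05. YFPneg SGC0946 cells had 39 higher and none lower (38.6% and 34.3%), with a median of 0.72 against 0.05.

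**Figure D1:**
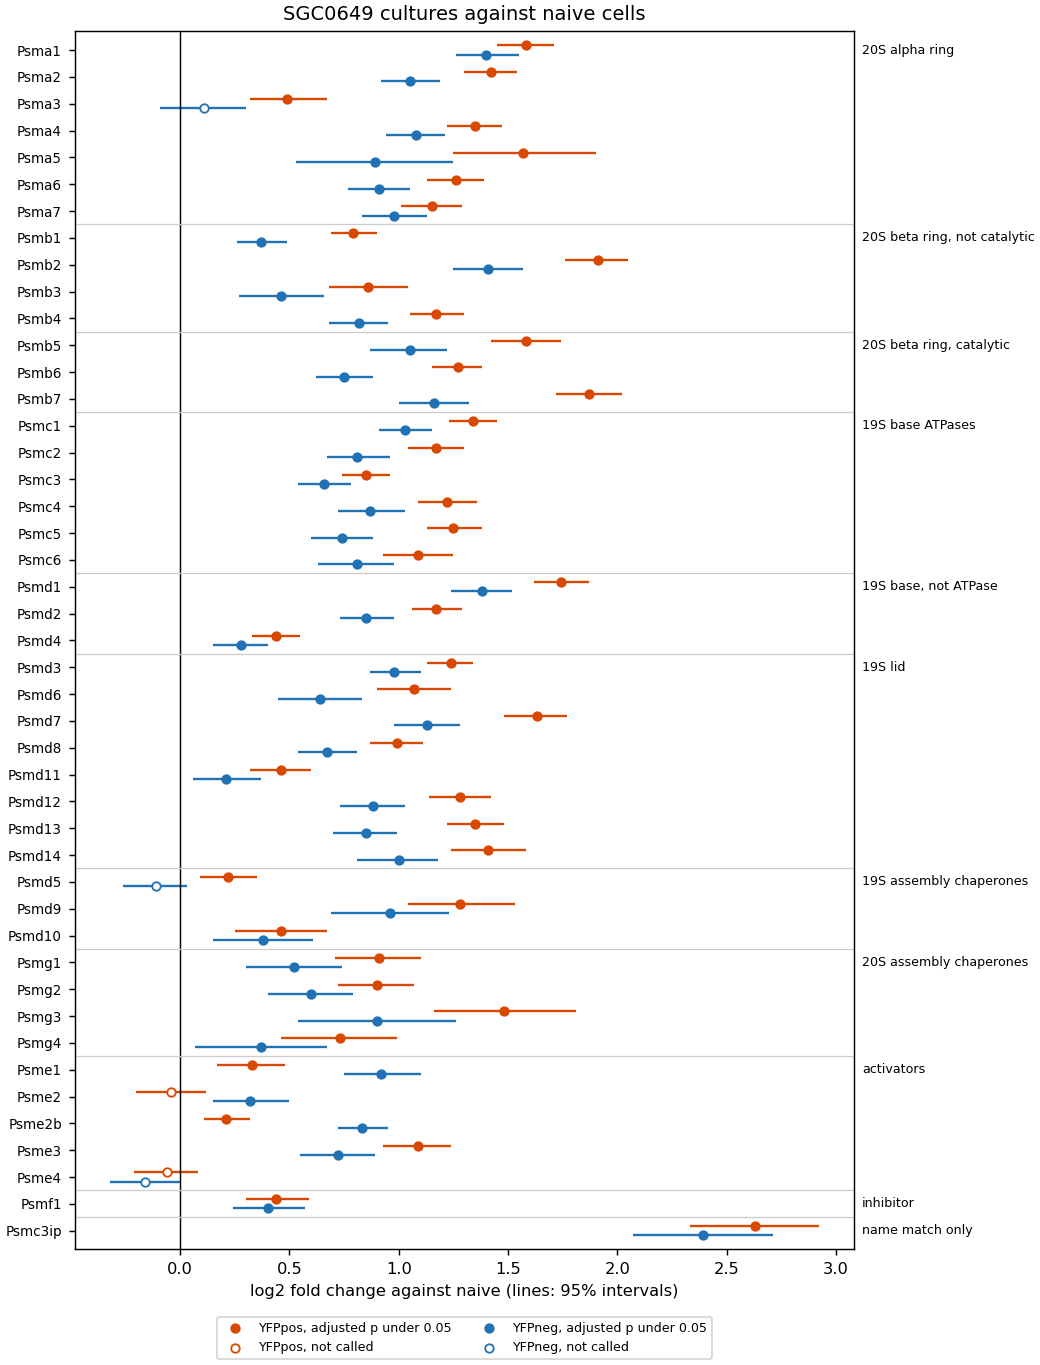
Log2 fold change of the 45 tested genes in YFPpos (orange) and YFPneg (blue) SGC0649 cells against naive cells, by role, with 95% intervals as lines; filled points passed an adjusted p of 0.05. All but Psme2 and Psme4 were higher in YFPpos cells, and the orange points lie to the right of the blue ones except for Psme1, Psme2 and Psme2b.

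The 31 subunits of the 20S core and 19S regulator, leaving out Psma8 and Psmb11, form the particle itself. All 31 were higher in YFPpos SGC0649 than in naive cells, beside 42.6% of all tested genes. Their log2 fold changes ran from 0.44 to 1.91 (median 1.25). Of them 24 rose at least 2-fold, where 25.4% of all tested genes were called at least 2-fold higher. In YFPneg SGC0649 cells 30 were higher (median 0.87), beside 36.4% of all tested genes, and 9 rose at least 2-fold, beside 18.9%. In SGC0946 cells 31 were higher in YFPpos (median 1.10) and 29 in YFPneg cells (median 0.77), beside 42.2% and 38.6% of all tested genes.

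Among the catalytic subunits, Psmb5 (chromosome 14, 54614119 to 54618022, GRCm38) carries the chymotrypsin-like site. Other transcripts hold 57.1% of its 50-base stretches, and reads that map to several places were not counted. Its level was 32.4, 34.3 and 35.0 CPM in the naive libraries, 66.3 and 73.7 in YFPneg SGC0649 and 65.9, 68.3 and 58.9 in YFPneg SGC0946. It was 97.8, 105 and 101 CPM in YFPpos SGC0649 and 87.9, 84.1 and 93.1 in YFPpos SGC0946. Naive, YFPneg and YFPpos libraries did not overlap. In YFPpos SGC0649 cells Psmb5 was 2.99-fold above naive cells (log2 fold change 1.58, SE 0.07, edgeR adjusted p 2.1e-12).

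Psmb7 (chromosome 2, 38588036 to 38644087), the trypsin-like subunit, had the largest rise of the catalytic subunits, from 60.1, 56.1 and 59.9 CPM in naive libraries to 209, 208 and 228 in YFPpos SGC0649. Its log2 fold change was 1.87 (SE 0.07, edgeR adjusted p 8.1e-14), and with SGC0946 the YFPpos libraries held 167, 170.0 and 191 CPM. The YFPneg libraries lay between, at 131 and 132 CPM with SGC0649 and 117, 111 and 127 with SGC0946. Psmb6 (chromosome 11, 70525367 to 70527858), the caspase-like subunit, rose least of these genes, from 74.3, 75.1 and 75.6 CPM to 182, 179.7 and 179 in YFPpos SGC0649 (1.27, SE 0.05). The other groups held 125 and 127 CPM (YFPneg SGC0649), 119, 115 and 109 (YFPneg SGC0946) and 155, 163 and 172 (YFPpos SGC0946).

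**Figure D2:**
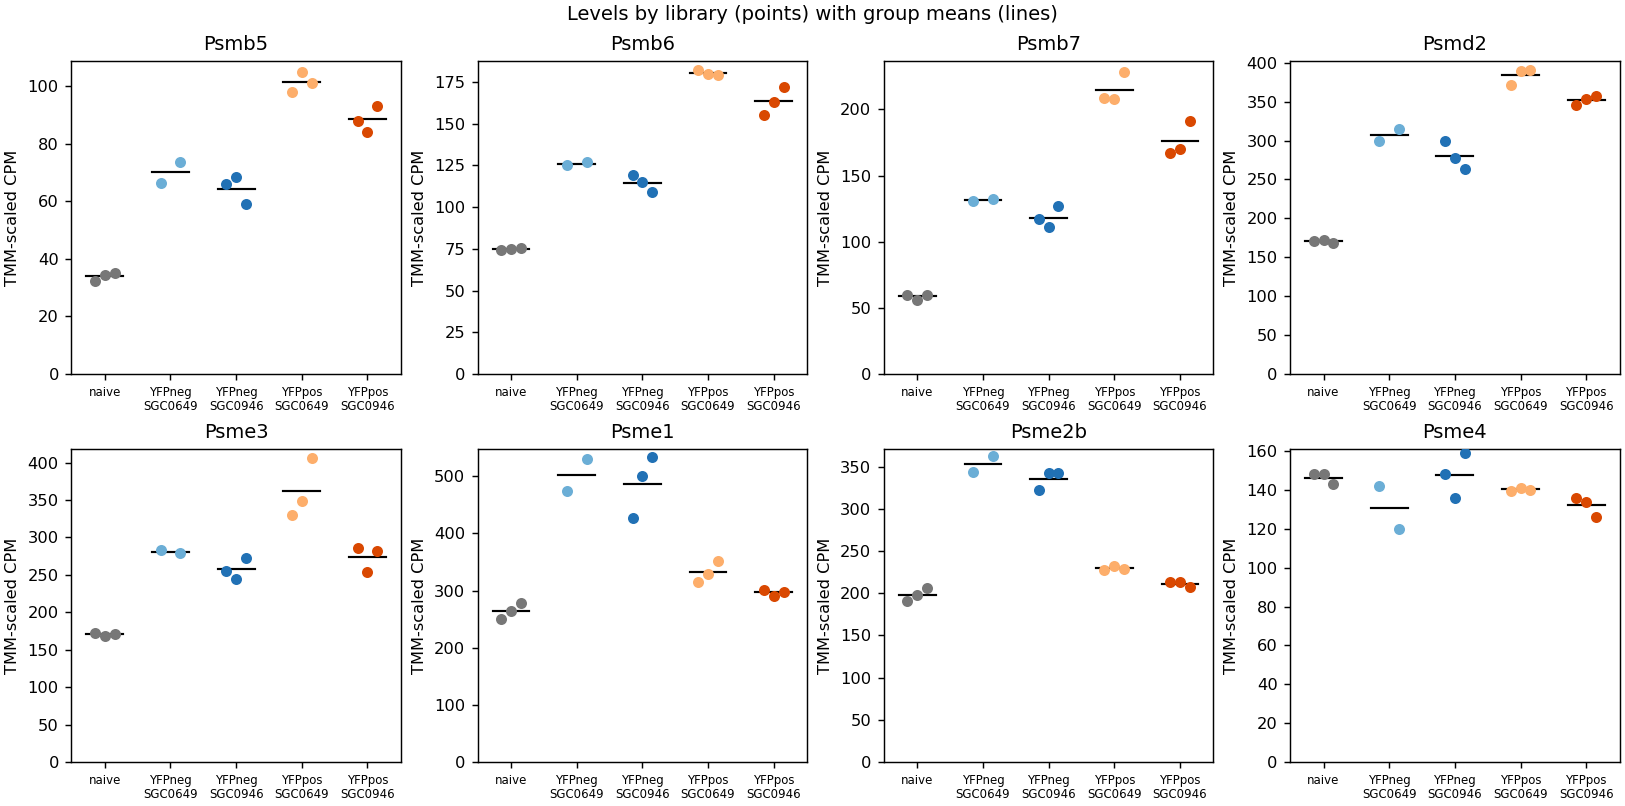
TMM-scaled CPM of 8 genes in each library (points), with the group means as lines and the axis from 0. Psmb5, Psmb6, Psmb7, Psmd2 and Psme3 step up from naive to YFPneg to YFPpos SGC0649 cells, Psme1 and Psme2b are highest in YFPneg cells, and Psme4 lies between 119.8 and 159 CPM in every library.

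The non-catalytic beta subunit Psmb2 had the largest rise of the 14 core subunits in YFPpos SGC0649 cells. It stood at 55.9, 50.8 and 54.4 CPM in naive libraries, 139 and 146 in YFPneg SGC0649 and 195, 200.3 and 209 in YFPpos SGC0649. With SGC0946 it was 137, 135 and 116 CPM in YFPneg and 168, 172 and 183 in YFPpos libraries. The groups did not overlap, and the YFPpos SGC0649 level was 3.75-fold that of naive cells (log2 fold change 1.91, SE 0.07). Its ring neighbours Psmb1 (0.79), Psmb3 (0.86) and Psmb4 (1.17) rose less in the same comparison.

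In the alpha ring, which gates entry to the core, 6 of 7 genes rose at least 2-fold in YFPpos SGC0649 cells, beside 25.4% of all tested genes. Their log2 fold changes ran from 1.15 (Psma7) to 1.58 (Psma1). Psma1 was the alpha gene with the largest rise in YFPneg cells too, at 1.40 (SE 0.07) with SGC0649 and 1.36 (SE 0.06) with SGC0946. Psma3 stood apart from its ring. It was at 45.0, 49.2 and 44.4 CPM in naive libraries and at 47.9, 51.6, 50.7, 42.1 and 42.9 in the 5 YFPneg libraries, which overlap. Its level reached 60.7, 65.2 and 68.8 CPM in YFPpos SGC0649 (0.49, SE 0.08) and 56.6, 55.4 and 58.4 in YFPpos SGC0946 libraries (0.30, SE 0.08).

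The 6 ATPases of the 19S base rose together, with log2 fold changes from 0.85 (Psmc3) to 1.34 (Psmc1) in YFPpos SGC0649 cells and from 0.66 to 1.03 in YFPneg SGC0649 cells. Psmd1, a scaffold subunit of the base, stood at 79.2, 81.7 and 84.0 CPM in naive, 215 and 209 in YFPneg SGC0649 and 252, 278 and 290.4 in YFPpos SGC0649 libraries (1.74, SE 0.06, edgeR adjusted p 3.4e-14). With SGC0946 it held 200.2, 186 and 197 CPM in YFPneg and 233, 222 and 236 in YFPpos libraries. Psmd4, a ubiquitin receptor of the base, moved far less than this scaffold, by 0.44 (SE 0.05) in YFPpos and 0.28 (SE 0.06) in YFPneg SGC0649 cells.

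The 8 lid subunits had a median log2 fold change of 1.26 in YFPpos SGC0649 cells. Psmd7 led them at 1.63 (SE 0.07), and its partner Psmd14, the deubiquitinase of the lid, had 1.41 (SE 0.08). Psmd11, a lid subunit that contacts the core, had 0.46 (SE 0.07) in YFPpos and 0.21 (SE 0.07) in YFPneg SGC0649 cells, the lowest of the lid. The YFPneg call was lost without YFPneg SGC0649 replicate 2. Over 12 alternatives the value ran from 0.16 to 0.28 and the highest adjusted p, by any tool run, was 0.13.

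All 4 chaperones of the 20S core were higher in YFPpos SGC0649 than in naive cells, beside 42.6% of all tested genes. Their values ran from 0.73 for Psmg4 to 1.48 (SE 0.15) for Psmg3. Of the 3 chaperones of the 19S base, Psmd9 rose by 1.28 (SE 0.12) and Psmd10 by 0.46 (SE 0.10), while Psmd5 had 0.22 (SE 0.06) in YFPpos and -0.11 (SE 0.07, not called) in YFPneg SGC0649 cells. Psmc3ip, the recombination gene, had the largest change of all 45 genes, from 2.88, 3.12 and 2.78 CPM in naive to 16.8, 20.7 and 16.7 in YFPpos SGC0649 libraries (log2 fold change 2.63, SE 0.14). Its YFPneg libraries held 15.1 and 15.6 CPM with SGC0649 and 13.8, 12.7 and 15.0 with SGC0946, and its YFPpos SGC0946 libraries 16.6, 15.7 and 16.5.

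Psma8 and Psmb11 did not pass the filter. Psma8 had 0 counts in the naive and YFPneg SGC0649 libraries, which allows up to 0.0573 and 0.0771 CPM at 3 counts per group, and at most 14 counts in any library. Psmb11 had 5 counts in YFPneg SGC0649 replicate 2, 1 count in YFPpos SGC0946 replicate 1 and 0 elsewhere. These limits cover counting error only.

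The proteasome caps differed from one another. Psme1 (chromosome 14, 55578123 to 55581529), the PA28 alpha gene, stood at 251, 265 and 278 CPM in naive libraries and highest in YFPneg libraries, at 474 and 530.2 with SGC0649 and 426, 500.5 and 533 with SGC0946. In YFPpos libraries it was 315, 329 and 351 CPM with SGC0649 and 301, 291 and 298 with SGC0946. Every YFPpos library lay above every naive and below every YFPneg library. Against naive cells its log2 fold change was 0.92 (SE 0.08) in YFPneg and 0.33 (SE 0.07) in YFPpos SGC0649 cells, 0.88 (SE 0.07) in YFPneg SGC0946 and 0.17 (SE 0.07, edgeR adjusted p 0.049) in YFPpos SGC0946 cells. The last call was lost in 5 of 13 alternative analyses, with values from 0.13 to 0.26.

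Psme2 (PA28 beta) was at 68.4, 77.3 and 79.6 CPM in naive, 90.7 and 97.4 in YFPneg SGC0649 and 73.2, 69.3 and 76.6 in YFPpos SGC0649 libraries. With SGC0946 it was at 76.1, 85.4 and 84.4 CPM in YFPneg and 68.8, 64.5 and 73.8 in YFPpos libraries. Of the cultured groups, YFPneg SGC0649 was the only one called against naive cells for this gene (0.32, SE 0.08, edgeR adjusted p 0.0027). Psme2b, a copy of Psme2 on chromosome 11, ranged over 191 to 206 CPM in the naive group, 322 to 362 CPM in YFPneg cells and 207 to 232 CPM in YFPpos cells. The genes share sequence (59.3% of 50-base stretches of Psme2 and 69.3% of Psme2b), and reads that map to both were dropped, so the split between them is uncertain. Summed, the pair gave 259 to 286 CPM for the naive group, 398 to 459 CPM for YFPneg cells and 278 to 306 CPM for YFPpos cells.

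Psme3, which encodes the nuclear cap PA28 gamma, moved with the core, at 173, 168 and 171 CPM in naive, 283 and 279 in YFPneg SGC0649 and 329.5, 349 and 406 in YFPpos SGC0649 libraries (1.09, SE 0.07). With SGC0946 it was 255, 245 and 273 CPM in YFPneg and 286, 254 and 282 in YFPpos libraries, which overlap. Psme4, the PA200 gene, stayed between 119.8 and 159 CPM in all 14 libraries. It was called lower in YFPpos SGC0946 than in naive cells (-0.15, SE 0.07, edgeR adjusted p 0.05), a call that 10 of 13 alternatives did not keep (-0.17 to -0.05). Psmf1, which encodes the inhibitor PI31, rose by 0.29 to 0.44 in the 4 cultured groups, from 45.0 to 47.4 CPM in naive to 53.4 to 64.1 CPM in cultured libraries.

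Levels of different genes were compared per kilobase of exon, as means over the 14 libraries. In the alpha ring they ran from 13.6 CPM per kilobase for Psma3 to 137 for Psma6, among non-catalytic beta subunits from 28.7 for Psmb3 to 116 for Psmb2, and among catalytic subunits from 41.1 for Psmb7 to 79.8 for Psmb5. The ATPases ran from 31.9 for Psmc2 to 113 for Psmc5, the other base subunits from 27.2 for Psmd1 to 73.9 for Psmd2, and the lid from 15.2 for Psmd11 to 70.7 for Psmd7. The chaperones ran from 4.28 (Psmd9) to 20.8 (Psmd10) for the base and from 6.76 (Psmg3) to 37.1 (Psmg4) for the core, overlapping the ranges of the subunits. Among the caps, Psme4 was lowest at 16.7 and Psme2b highest at 309.5, and the inhibitor Psmf1 had 8.73 CPM per kilobase. With the longest transcript as the length, the lowest gene of each role stayed the same, while the highest became Psma1 (177), Psmb4 (179.8), Psmb6 (137) and Psmd14 (106) in their roles.

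The reporter sort asks how cells that made interferon-gamma differed from those in the same culture condition that did not. Nearly all core and regulator subunits were higher in YFPpos cells, and the PA28 alpha and beta genes were lower. With SGC0649, 37 of 45 genes were higher and 3 lower in YFPpos cells, where 23.9% of all tested genes were higher and 21.3% lower (edgeR). The median log2 fold change was 0.35 for the proteasome genes and 0.04 for all genes, and no gene reached 2-fold. With SGC0946, 30 were higher and 3 lower (26.9% and 27.8% of all genes), with a median of 0.27 against 0.01.

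**Figure D3:**
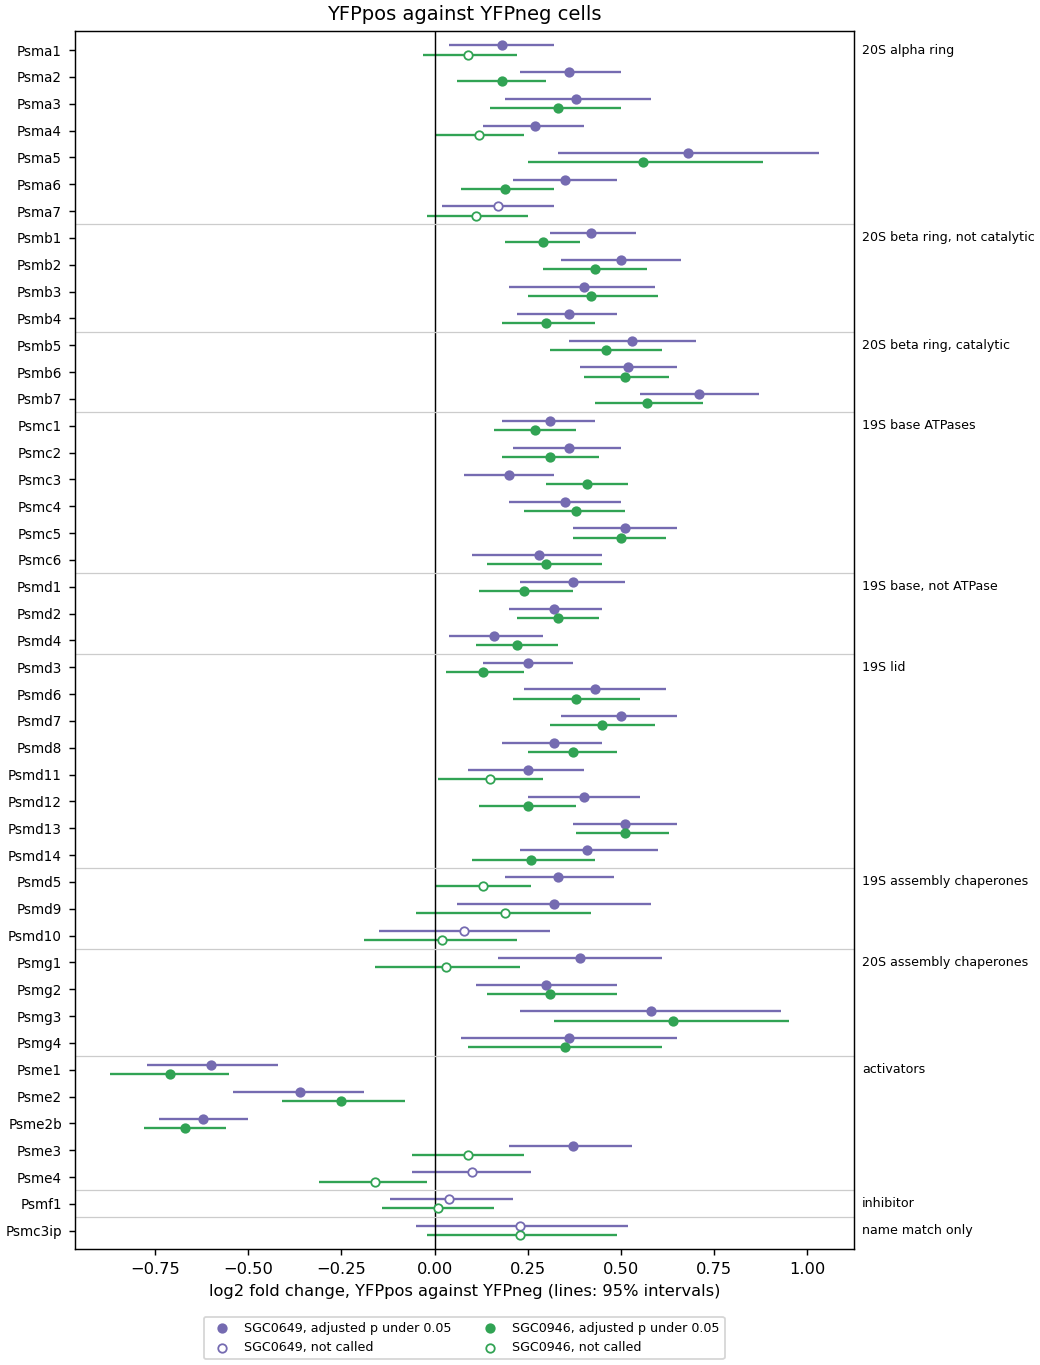
Log2 fold change of YFPpos against YFPneg cells for the 45 tested genes with SGC0649 (purple) and SGC0946 (green), by role, with 95% intervals; filled points passed an adjusted p of 0.05. Core and regulator genes lie to the right of 0 and Psme1, Psme2 and Psme2b to the left with both compounds.

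Of the 31 core and regulator subunits, 30 were higher in YFPpos cells with SGC0649 and 27 with SGC0946, and none was lower. Of all tested genes 23.9% and 26.9% were higher. Over the alternatives 23 to 31 were called with SGC0649 and 24 to 31 with SGC0946. The 23 came from a block by title number, which does not pair the libraries beyond doubt. The catalytic subunits had log2 fold changes of 0.71 (Psmb7, SE 0.08), 0.53 (Psmb5, SE 0.08) and 0.52 (Psmb6, SE 0.06) with SGC0649, and 0.57 (SE 0.07), 0.46 (SE 0.07) and 0.51 (SE 0.05) with SGC0946. Psmb7 had the largest value with SGC0649 (edgeR adjusted p 1.1e-06) and was 1.64-fold higher in YFPpos cells. In the alpha ring, 6 of 7 genes were called higher at a median of 0.35 with SGC0649, beside 23.9% of all tested genes. With SGC0946 it was 4 of 7 at a median of 0.18, beside 26.9%. These counts depended on the analysis, with 4 to 7 called with SGC0649 over the alternatives and, with SGC0946, 7 with DESeq2's size factors and 2 without YFPpos SGC0946 replicate 3.

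Psma5, an alpha subunit that shares 55.4% of its 50-base stretches with other transcripts, was among the largest, with 0.68 (SE 0.17) and 0.56 (SE 0.15), from 31.6 and 25.3 CPM in YFPneg to 43.6, 47.8 and 45.6 in YFPpos SGC0649 libraries. Without YFPneg SGC0649 replicate 2 its value was 0.53 and its edgeR adjusted p 0.056. The core chaperone Psmg3 had 0.58 (SE 0.16) and 0.64 (SE 0.15), from 15.7 and 23.3 to 26.8, 27.5 and 33.3 CPM with SGC0649. Without YFPneg SGC0649 replicate 1 the call was lost, at 0.33 and an edgeR adjusted p of 0.17.

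The genes lower in YFPpos cells were Psme1, Psme2 and Psme2b with both compounds. Psme1 was 1.51-fold lower with SGC0649 (-0.60, SE 0.08, edgeR adjusted p 1.9e-05) and 1.64-fold lower with SGC0946 (-0.71, SE 0.07, edgeR adjusted p 5.0e-07). Psme2b had -0.62 (SE 0.06) and -0.67 (SE 0.05). Psme2 had -0.36 (SE 0.08) and -0.25 (SE 0.08), and the latter was not kept without YFPpos SGC0946 replicate 2 (-0.20, edgeR adjusted p 0.061). Psme3 went the other way with SGC0649 (0.37, SE 0.08) and had 0.09 (SE 0.07, not called) with SGC0946. Psme4 (0.10 and -0.16) and Psmf1 (0.04 and 0.01) were not called with either compound.

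The 3 interferon-induced subunits left out by the rule were also lower in YFPpos cells with both compounds. Of all tested genes 21.3% were lower with SGC0649 and 27.8% with SGC0946. Psmb8 had -0.26 and -0.17, Psmb9 -0.56 and -0.54, and Psmb10 -0.70 and -0.56 with SGC0649 and SGC0946. Counts of a constitutive subunit were therefore set against those of the subunit that can replace it in the same library. The Psmb7 to Psmb10 ratio ranged over 0.444 to 0.488 for the naive group, 0.786 to 1.02 for YFPneg cells and 1.85 to 2.66 for YFPpos cells. The Psmb6 to Psmb9 ratio was 0.395 to 0.507 in naive and YFPneg libraries and 0.862 to 1.06 in YFPpos libraries. The Psmb5 to Psmb8 ratio was 0.0938 to 0.120 in naive and YFPneg and 0.155 to 0.190 in YFPpos libraries. In each of these ratios the YFPpos libraries lay above all others.

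The summed counts of Psme1, Psme2 and Psme2b, set against those of the 14 core subunits, moved the opposite way. This ratio ranged over 0.468 to 0.501 for the naive group, 0.418 to 0.490 for YFPneg cells and 0.232 to 0.249 for YFPpos cells. The ratios compare libraries and not genes, because they are not corrected for gene length. By themselves they show an unequal change and not which side changed, and they were formed with the tests above known. Between the sorts those tests called Psmb5, Psmb6 and Psmb7 higher in YFPpos cells with both compounds. They called Psmb8, Psmb9, Psmb10, Psme1, Psme2 and Psme2b lower.

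**Figure D4:**
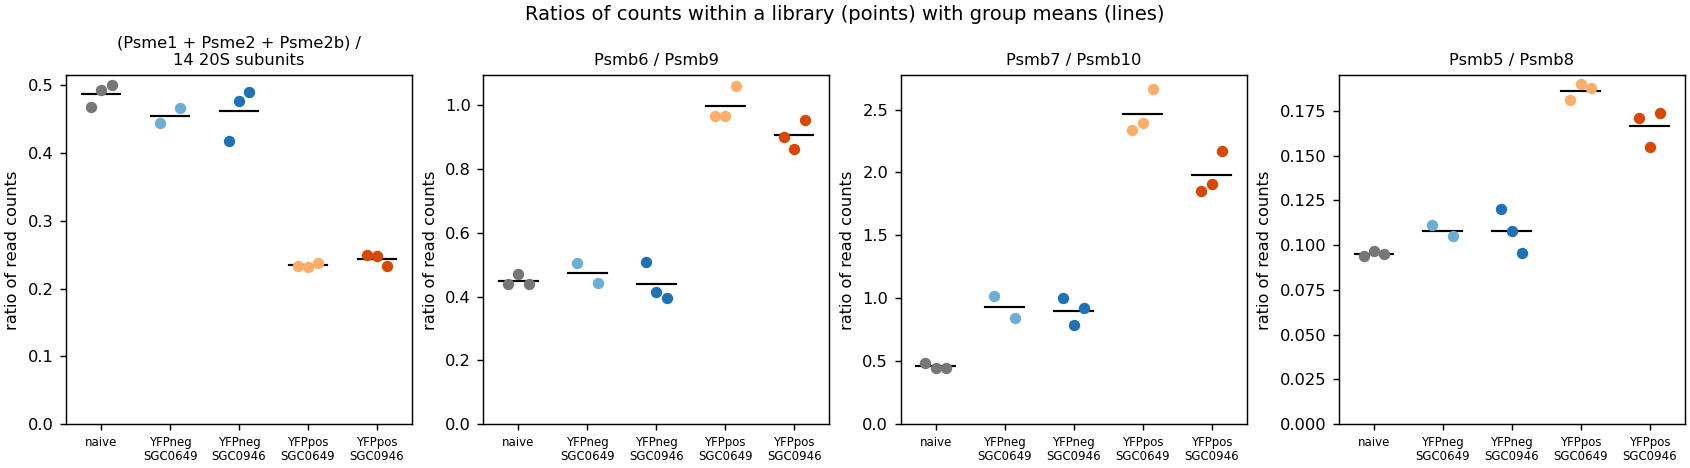
Ratios of read counts within each library (points) with group means as lines and axes from 0, for the PA28 alpha and beta genes against the 14 core subunits and for each constitutive catalytic subunit against its interferon-induced counterpart. YFPpos libraries are lowest in the left panel (0.232 to 0.249) and highest in the other panels.

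SGC0946 and SGC0649 were compared as 1 pair of compounds at the same dose and time, once in YFPpos and once in YFPneg cells. In YFPpos cells the proteasome genes were slightly lower with the DOT1L inhibitor: 16 of 45 were lower and none higher, where 15.7% of all tested genes were lower and 12.1% higher (edgeR). The median log2 fold change was -0.16 for the proteasome genes and -0.04 for all genes, and 43 of 45 values were below 0. The share of all genes below 0 was not counted, and their median was 0.01 with DESeq2's size factors. The 16 were 13 core and regulator subunits, Psme3, Psmg1 and Psmg2. The count was 10 with DESeq2's size factors or without the low-count filter, 8 without YFPpos SGC0649 replicate 3 and 9 without YFPpos SGC0946 replicate 2. Summed levels of the NK and myeloid marker lists moved in the same comparison. The 3 NK cell markers summed to 75.8 to 165 CPM with SGC0649 and 18.9 to 25.4 with SGC0946, with Ncr1 at 0 with SGC0946. Of the 2 tested NK cell markers, 1 was called lower and none higher. Their median log2 fold change was -0.63, a smaller fall than that of the sum. A median of 2 genes averages the called gene with the one not called and describes neither, so no common fall of the list is shown. The 6 myeloid markers summed to 5.31 to 6.76 CPM with SGC0946 and to less than that in every SGC0649 library, the lowest at 0.562 (1 called higher), with Cd14 at 0 with SGC0649 and Csf1r at 0 with SGC0946. Their part in the result was not tested.

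**Figure D5:**
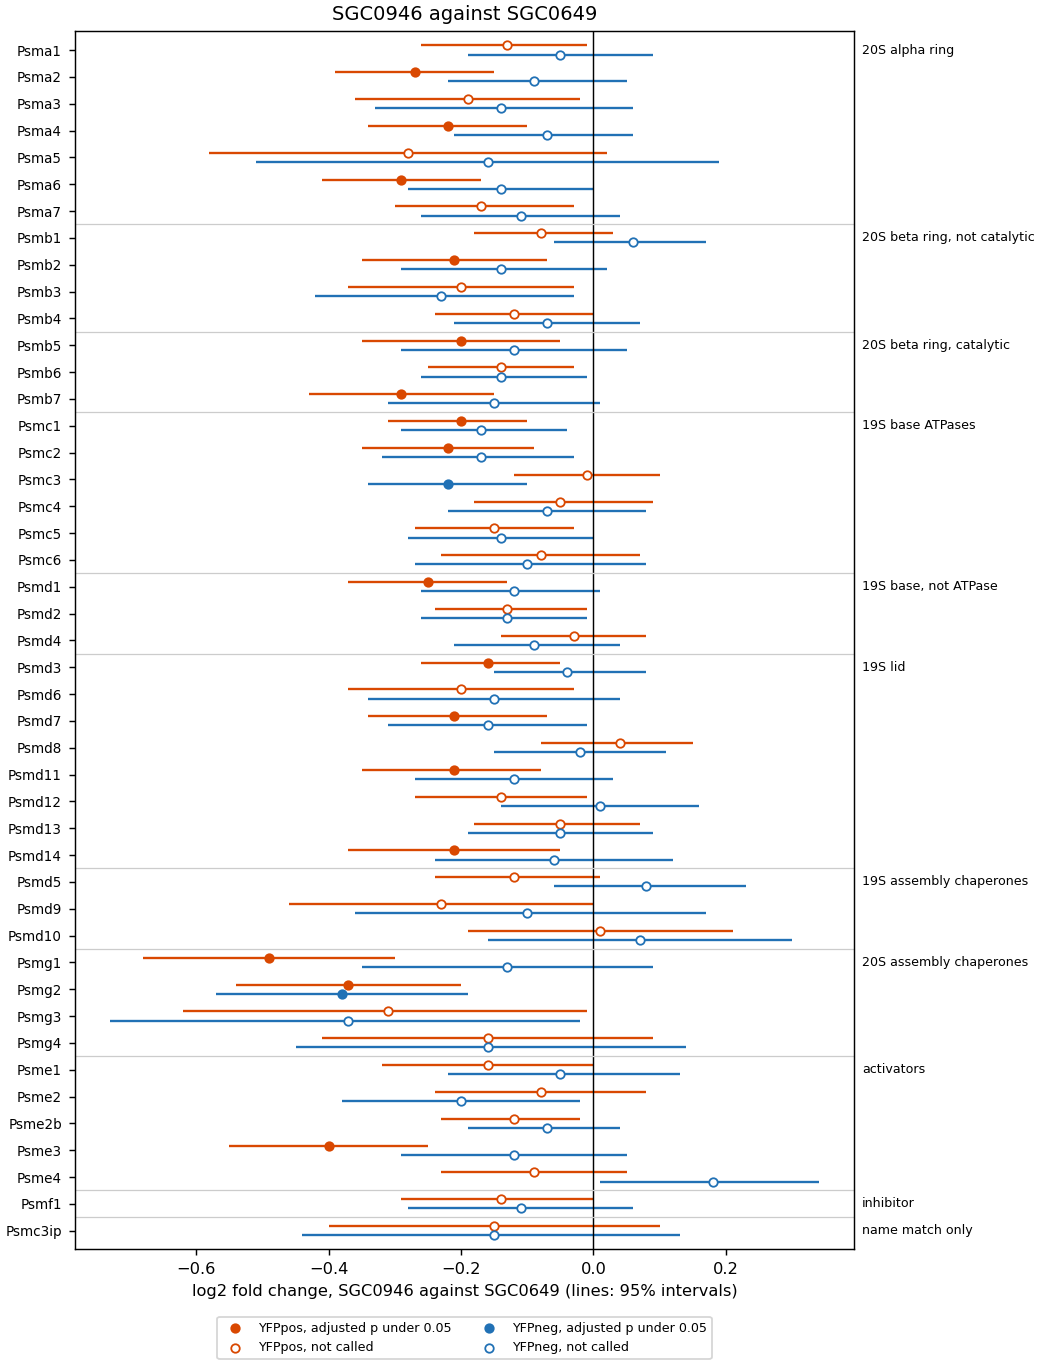
Log2 fold change of SGC0946 against SGC0649 for the 45 tested genes in YFPpos (orange) and YFPneg (blue) cells, by role, with 95% intervals; filled points passed an adjusted p of 0.05. Nearly all points lie left of 0, with 16 filled in YFPpos and 2 in YFPneg cells.

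The 8 genes called in all 13 alternatives were Psma2, Psma6, Psmb7, Psmc1, Psmd1, Psme3, Psmg1 and Psmg2. Psmg1, which builds a dimer with Psmg2 that assembles the alpha ring, had the largest difference. It was at 42.0, 45.9 and 46.8 CPM with SGC0649 and 31.8, 30.6 and 33.6 with SGC0946, without overlap (-0.49, SE 0.09, edgeR adjusted p 9.2e-04). Psme3 followed with -0.40 (SE 0.07, edgeR adjusted p 6.8e-04), and the SGC0946 values were all below the SGC0649 ones (254 to 286 against 329.5 to 406 CPM). Psmg2 was at 54.4, 60.2 and 62.0 CPM with SGC0649 and 46.6, 43.5 and 46.8 with SGC0946 (-0.37, SE 0.08). Psma6 had -0.29 (SE 0.06), from 214, 232 and 234 CPM to 189, 174 and 192.

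Of the catalytic subunits, Psmb7 was 1.22-fold lower with SGC0946 in YFPpos cells (-0.29, SE 0.07, edgeR adjusted p 0.004). Psmb5 had -0.20 (SE 0.07, edgeR adjusted p 0.045), a call kept in 4 of 13 alternatives, and Psmb6 -0.14 (interval -0.25 to -0.03), which was not called. Psme1 (-0.16, interval -0.32 to 0.00), Psme2 (-0.08, -0.24 to 0.08), Psme4 (-0.09, -0.23 to 0.05) and Psmf1 (-0.14, -0.29 to 0.00) were not called either. Psmc3 had -0.01 with an interval of -0.12 to 0.10. Intervals are 95% intervals of the log2 fold change.

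In YFPneg cells 2 of 45 genes were lower with SGC0946 and none higher, where 3.64% of all tested genes were lower and 4.99% higher (edgeR). The median was -0.12 against 0.01 for all genes, and 40 of 45 values were below 0, a count without its share over all genes. Psmg2 had -0.38 (SE 0.09, edgeR adjusted p 0.018), from 52.1 and 43.6 CPM with SGC0649 to 37.5, 36.6 and 36.1 with SGC0946. Psmc3 had -0.22 (SE 0.06, edgeR adjusted p 0.025), from 205 and 217 to 187, 184 and 171 CPM. Without YFPneg SGC0649 replicate 1, Psme4 was called higher (0.30, edgeR adjusted p 0.046, against 0.18 and 0.15 with it). Neither lower call held in all 12 alternatives: Psmg2 was called in 10 and Psmc3 in 8. With the compared groups alone both were lost, Psmg2 at -0.38 (edgeR adjusted p 0.24) and Psmc3 at -0.22 (edgeR adjusted p 0.33). Psmg2 had -0.25 without YFPneg SGC0649 replicate 1, and Psmc3 had -0.18 without YFPneg SGC0649 replicate 2. The catalytic subunits had -0.12 (Psmb5, interval -0.29 to 0.05), -0.14 (Psmb6, -0.26 to -0.01) and -0.15 (Psmb7, -0.31 to 0.01), and Psme3 had -0.12 (-0.29 to 0.05), and none of these was called. Of the 9 markers of dividing cells, 3 were lower with SGC0946 in YFPneg cells, and in YFPpos cells 1 was higher and 1 lower, and their part in these results was not tested.

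Whether the compound acted differently in the sorts was tested as an interaction, the difference in YFPpos minus that in YFPneg cells. None of the 45 genes was called by edgeR, where 1.15% of all tested genes were. An unadjusted edgeR p under 0.05 was found for 6 of the 45 and for 1706 of all 12343 tested genes, a similar share. DESeq2 called 1, Psmc3 (interaction 0.21 in edgeR, interval 0.05 to 0.37, adjusted p 0.22), and limma-voom called 0. Psmg1 (-0.36, interval -0.65 to -0.07), Psme3 (-0.28, -0.50 to -0.05) and Psme4 (-0.26, -0.48 to -0.05) each had an edgeR adjusted p of 0.26. The fall of Psmg1 and Psme3 in YFPpos cells is thus not shown to differ from that in YFPneg cells.

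Other parts of the proteasome system were read from fixed lists. Of 11 further subunits and bound factors, 8 were higher and none lower in YFPpos SGC0649 than in naive cells (median log2 fold change 0.48). The shares of all tested genes were 42.6% and 37.3%. Among the 8 were the deubiquitinases Uchl5 (1.76, SE 0.08) and Usp14 (1.31, SE 0.07) and the thioredoxin-like Txnl1 (1.65, SE 0.07). Pomp, the maturation factor of the core, rose by 1.53 (SE 0.06). In YFPneg SGC0649 cells 7 were higher and 2 lower (36.4% and 32.6% of all tested genes). Between the sorts 8 were higher in YFPpos cells with SGC0649 and 6 with SGC0946 (23.9% and 26.9%). Usp14 was lower with SGC0946 in YFPpos cells (-0.42, SE 0.07, edgeR adjusted p 4.5e-04).

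The transcription factor NRF1, encoded by Nfe2l1, raises proteasome genes when degradation is blocked, and NRF2 (Nfe2l2) reads related sites. Of 9 genes of this axis, 4 were higher and 5 lower in YFPpos SGC0649 than in naive cells (median -0.25), beside 42.6% and 37.3% of all tested genes, so the list as a whole showed no common direction. Of the 4 higher genes, Nfe2l1 rose by 0.54 (SE 0.07) and the partner genes Mafg and Maff by 1.39 (SE 0.11) and 2.41 (SE 0.20). Of the 5 lower genes, Bach1, a repressor at the same sites, had -1.61 (SE 0.11), and the others are not named here. Between the sorts 2 were higher and 1 lower in YFPpos cells with SGC0649 (median -0.08), beside 23.9% and 21.3% of all tested genes. With SGC0946, 3 were higher and 5 lower (median -0.32), beside 26.9% and 27.8%. Among them Nfe2l1 was higher in YFPpos cells with SGC0649 (0.34, SE 0.08) and SGC0946 (0.25, SE 0.07), and Bach1 was lower with both (-1.10 and -1.09). Nfe2l2 was lower with SGC0946 in YFPpos cells (-0.63, SE 0.07, edgeR adjusted p 7.4e-06).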

How the data were processed

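RNA sequencing counts from 14 libraries were analysed in 5 groups taken from the labels. The authors deposited whole-number read counts per gene, without normalization, on genome build GRCm38, with featureCounts, edgeR and limma named in the submitters' processing notes without versions. Per the file headers, a second deposited table holds counts of reads in each assignment category, used for the shares of unmapped and assigned reads. The first table is named for reverse-strand counting of protein-coding genes. The aligner was not given in the sources used here. Per the second table, reads mapping to several places were not assigned to genes, and 8 of the 47 genes share over 20% of their 50-base stretches with other transcripts (GENCODE M21), among them Psma5, Psmb5, Psme2 and Psme2b, so reads from those stretches can be missing.

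Counts were filtered with filterByExpr, scaled by TMM and fitted with edgeR 4.0.16 (R 4.3.3) over all libraries with 1 coefficient per group. The 9 comparisons were tested with the quasi-likelihood F test and adjusted by Benjamini-Hochberg over 12343 genes at 0.05. Standard errors are the log2 fold change over the root of F, with 95% intervals. Levels are TMM-scaled CPM. The common dispersion was 0.00831 with 7.63 prior degrees of freedom. The 13 pairs of replicates differed by 3.08 to 20.5 times sampling noise (chi-square per degree of freedom), so none is a repeat deposit. The scripts were tested on simulated data. Alternatives were DESeq2 1.42.0 (size factors and test), limma-voom (limma 3.58.1), total counts as scaling, no filter, the compared groups alone, a replicate block and leaving out each library. The block was the title number between the sorts and in the interaction, and its last digit in the other comparisons. Promoters are from RefSeq (GRCm38.p6).

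The genes and lists were chosen with earlier results of these data known. Genes named with values are the catalytic subunits, the caps and the inhibitor, the 4 largest called changes each way in each comparison, called members against their role, members failing the filter and the per-kilobase extremes of each role. Genes outside this rule, such as Psma3, Psmd4, Psmd11 and Psmd5, were named after their values were seen, as was Psmc3 in the interaction. YFPneg SGC0649 cells have 2 libraries, and YFPneg cells of sample number 63 were not analysed here.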

Additional observations from a re-analysis of the deposited data

How the results depend on the processing

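Counts of called proteasome genes against naive cells and between the sorts stayed within 1.5 times under every alternative that was run. In YFPpos cells, the 16 genes lower with SGC0946 became 10 with DESeq2's size factors, 10 without the low-count filter and 8 to 17 when a library was left out (DESeq2's test gave 13 and limma-voom 21). In YFPneg cells, the 2 became 1 without the filter, 0 with the compared groups alone, 1 with a replicate block and 1 to 3 when a library was left out. For the interaction, 0 became 1 with DESeq2's test. The cause of these shifts was not tested. No called value changed sign under any alternative. Values near 0 that were not called did, such as Psmf1 between the sorts with SGC0946 (-0.04 to 0.08) and Psmc3 between the compounds in YFPpos cells (-0.03 to 0.03). Leaving out a library gave 43 to 43, 40 to 43, 40 to 41 and 37 to 39 called genes against naive cells (YFPpos and YFPneg SGC0649, then YFPpos and YFPneg SGC0946), 34 to 38 and 29 to 37 between the sorts with SGC0649 and SGC0946, and 0 to 0 for the interaction. Total-count scaling moved the median of all genes by up to 0.10, from 0.05 to 0.15 in YFPpos SGC0946 against naive cells, and the medians of the proteasome genes in YFPpos against naive cells from 1.17 to 1.24 and from 1.03 to 1.12. With the longest transcript as length, 39 of 47 levels per kilobase moved by more than the spread between replicates.

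The numbers in the sample titles do not pair the libraries beyond doubt. The correlation of deviations from the group mean between YFPpos and YFPneg libraries of the same number was 0.15 and 0.036 with SGC0649 and 0.11, 0.078 and 0.041 with SGC0946, not over 0.1 throughout. With SGC0946 each YFPpos library correlated best with the YFPneg library of its own number. So did YFPpos SGC0649 replicates 1 (0.15 against -0.15) and 2 (0.036 against -0.036). With only 2 YFPneg SGC0649 libraries, such values are equal and opposite by construction. YFPneg SGC0649 replicate 2 correlated more with YFPpos SGC0649 replicate 3 (0.12), whose number has no YFPneg library here. This is a hint from the data and not from the design. With a block by title number, 29 and 32 genes were called between the sorts and 0 in the interaction. Of the 31 core and regulator subunits 23 and 26 were called, and Psma1, Psma4, Psmc3, Psmc6, Psmd3, Psmd4 and Psmd11 lost their call with SGC0649. The other comparisons were blocked by the last digit of that number, which matches libraries across compounds or naive with cultured libraries. They gave 43, 41, 44 and 37 called genes against naive cells (in the order above), and 18 and 1 between the compounds in YFPpos and YFPneg cells.

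Depth limits what can be said of Psma8 and Psmb11, for which at most 14 counts were found in any library.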

Other observations

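Of 8 genes of the p97 unfoldase and its cofactors, which extract ubiquitylated proteins, 5 were higher and 3 lower in YFPpos SGC0649 than in naive cells (median log2 fold change 0.54), beside 42.6% and 37.3% of all tested genes. Vcp, which encodes p97 itself, rose by 1.17 (SE 0.06) and its cofactor gene Nploc4 by 1.12 (SE 0.06), while Ubxn7 had -1.17 (SE 0.07). Between the sorts 3 of the 8 were higher and 1 lower in YFPpos cells with SGC0649, beside 23.9% and 21.3% of all tested genes. With SGC0946 in YFPpos cells 3 were lower, led by Faf1 (-0.40, SE 0.08), beside 15.7% of all tested genes. That count was 1 without YFPpos SGC0649 replicate 3, without YFPpos SGC0946 replicate 1 or without YFPpos SGC0946 replicate 2.

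Of 6 shuttle receptors that carry ubiquitylated proteins to the proteasome, 3 were higher and 2 lower in YFPpos SGC0649 than in naive cells, near the same shares of all tested genes. Rad23b rose by 1.54 (SE 0.06) and was also higher in YFPpos than in YFPneg cells (0.63, SE 0.07), while Ubqln2 had -0.91 (SE 0.11) against naive cells. With SGC0946 in YFPpos cells 4 were lower, among them Ubqln4 (-0.34, SE 0.07), beside 15.7% of all tested genes. The count was 2 of 6 without YFPpos SGC0649 replicate 3 or without YFPpos SGC0946 replicate 2. Of 6 ubiquitin and ubiquitin-activating enzyme genes, 4 were higher and none lower in YFPpos SGC0649 than in naive cells, beside 42.6% and 37.3% of all tested genes. The 4 included Uba1 (0.70, SE 0.05) and Ubb (0.66, SE 0.05). Counts are of genes called by edgeR over all genes tested.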
